A study of Mus musculus with 2 samples.

Results

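The 10 genes studied here encode ubiquitin ligases or their adaptors, and were measured in sorted mouse CD4+ T cells. They are Cblb, Cbl, Itch, Nedd4, Ndfip1, Rnf128, Peli1 and Stub1, chosen because they are tied to T cell tolerance, together with Neurl3 and Pja1, which were chosen by their measured signals, since they were seen to differ between the arrays. All probe sets annotated to exactly 1 of these symbols were taken, which gave 30 probe sets for 10 of the 18193 genes with a probe set. The samples were CD4+ T cells of DEREG mice, a strain in which a transgene under the Foxp3 promoter makes green fluorescent protein (GFP). Cells of both groups come from mice with this transgene, which also encodes the diphtheria toxin receptor as part of the GFP fusion. The CD4+GFP+FoxP3+ cells, the regulatory T cells, and the CD4+GFPnegFoxP3neg cells, the remaining CD4+ T cells, were profiled on 1 Affymetrix Mouse Genome 430 array each. No treatment, age, organ or number of pooled mice is given in the sources used here.

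Ubiquitin ligases attach ubiquitin to chosen proteins, which marks them for degradation, sorting or altered signalling. HECT ligases such as Itch and Nedd4 pass ubiquitin through a cysteine of their own, whereas RING ligases such as the CBL proteins bring a ubiquitin-charged E2 enzyme next to the target. In T cells several of them restrain signalling from the antigen receptor, and mice without Cblb, Itch or Ndfip1 develop inflammatory or autoimmune disease. Rnf128, also called GRAIL, is known as a ligase that anergic T cells induce, and Stub1 as a ligase that can ubiquitinate the Foxp3 protein. Arrays measure the messenger RNA, so the activity of these enzymes was not measured.

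With 1 array per group there are no replicates, no error can be given and no test was run. Array and group cannot be told apart. Where 2 signals are given, that of the GFP-positive array stands first. A difference is the log2 ratio of the first to the second, so that positive values mean a higher signal in regulatory T cells. In bulk RNA, fewer cells that express a gene and less RNA per cell cannot be told apart. A signal floor of 51.86 was set at the 90th percentile of probe sets for genes restricted to other tissues, and a fold with 1 signal below it is a lower bound. The Foxp3 probe set, which checks the sort, read 504.4 and 173.2, so the signal in the cells sorted as negative was above the floor as well. Regulatory T cell markers were higher on the GFP-positive array for 10 of 10 genes. Of 8 general T cell markers, all above the floor, 6 were lower and 2 higher there, with a median of −0.20 log2. Cd4 read 256.5 and 415.1. The ratio of 3′ to 5′ signal, which increases with RNA degradation or incomplete copying, was 5.30 and 3.57 for Actb and 9.27 and 6.24 for Gapdh, higher on the GFP-positive array in each case. Of B cell markers 5 of 11 were above the floor, with summed signals of 2434.6 and 4690.2, most of it from Ighm (1880.7 and 4139). Cd22 was lower as well (98.3 and 235.1), Cd79b was higher (221.9 and 70.8), and Cd79a and Pax5 were below the floor on both. Myeloid and dendritic cell markers (7 of 13 above the floor) summed to 1132 and 1137.3, CD8 T and NK cell markers (6 of 8) to 2241.2 and 2420.7, and erythroid and platelet markers (3 of 7) to 249.8 and 308.1. Lyz2, Cd14, Ncr1 and Alas2 were below the floor on both arrays. Cst3 (681.8 and 639.4), Gzma (1152.9 and 850.5), Nkg7 (723.7 and 1221.7), Klrd1 (148.5 and 103.5) and Cd8b1 (100.4 and 115.2) were above it on both, and Fcgr3 only on the GFP-negative array (35 and 125.8). The part of RNA quality and of these other cell types in the results below was not tested.

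The 8 genes chosen for their role in tolerance had similar signals in regulatory and other CD4+ T cells. All 8 were above the floor on both arrays, 3 were higher and 5 lower in GFP-positive cells, and their differences ran from −0.52 for Rnf128 to 0.22 log2 for Ndfip1. None passed 2-fold or 1.5-fold. Of all 11377 genes with a signal above the floor on either array, 4.48% passed 2-fold and 19.0% passed 1.5-fold. Genes higher in GFP-positive cells by 2-fold or more made up 2.53%, and those lower by as much 1.95%. At such rates a count of 0 in 8 genes is near the background and says nothing particular about these ligases. Their median difference was −0.04 log2 and their median absolute difference 0.15, beside −0.0042 and 0.27 over all genes. This comparison does not account for signal, since all genes here include those above the floor on 1 array only. Among genes with a mean signal within 0.5 log2 of each of the 8, the share past 2-fold ran from 0.50% for Peli1 to 8.22% for Nedd4. Neurl3 and Pja1 were the 2 members past 2-fold, in opposite directions, which is what they were chosen for.

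**Figure D1:**
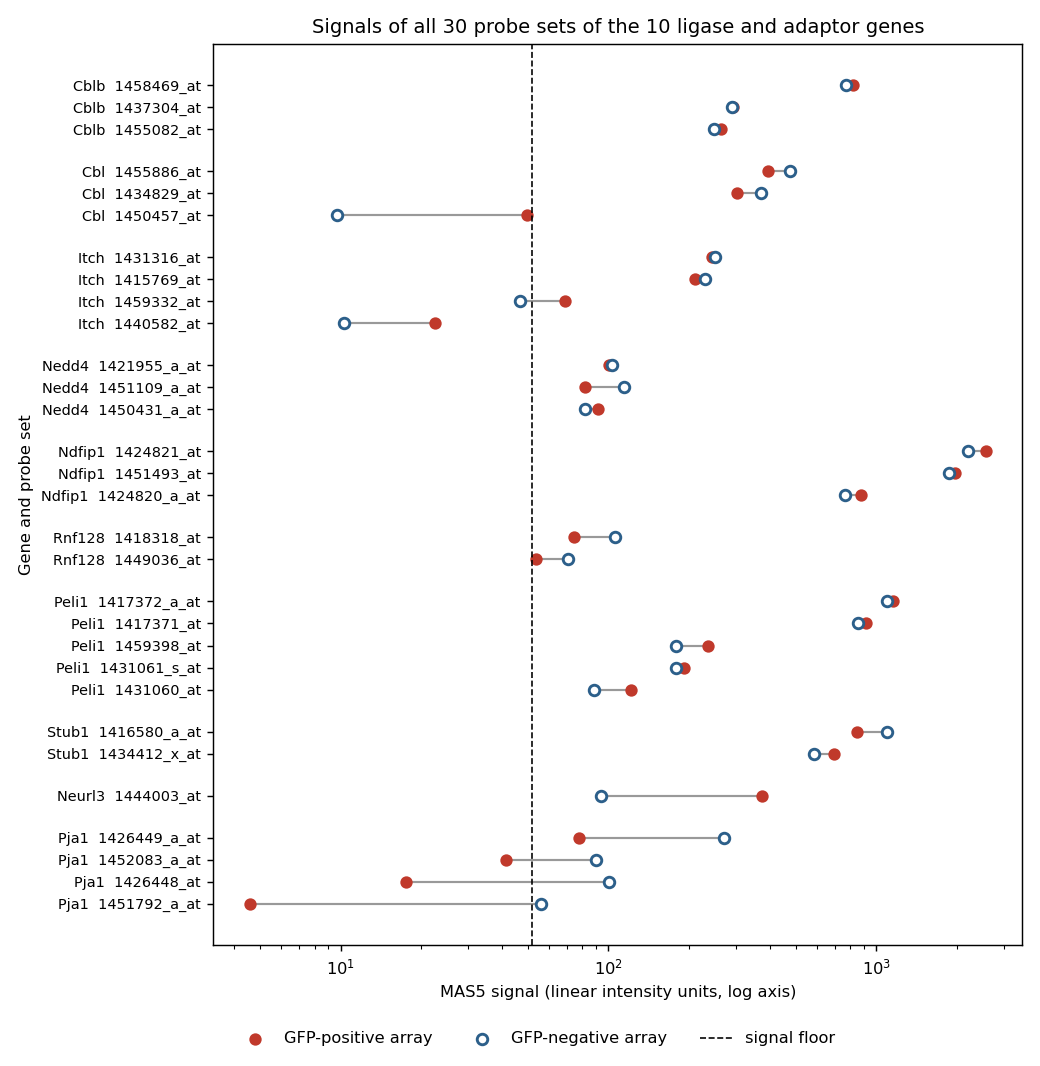
MAS5 signal (log axis) of each of the 30 probe sets on the GFP-positive (filled) and GFP-negative (open) array, with the floor of 51.86 as a dashed line. The 2 points of most probe sets above the floor lie close together, while Neurl3 (374.6 and 93.5) and the 4 probe sets of Pja1 are far apart, as are a Cbl and an Itch probe set below the floor.

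Cblb and Cbl encode RING ligases that bind phosphorylated proteins of the T cell receptor pathway. Cblb, which makes T cell activation depend on the co-stimulatory receptor CD28, differed by no more than 0.09 log2 on any of its 3 probe sets. Its brightest probe set read 818.8 and 770.5. The other Cblb probe sets read 293 and 289.1, and 263.9 and 249. All 3 were slightly higher in GFP-positive cells, by 1.06-fold, 1.01-fold and 1.06-fold. For Cbl the 2 probe sets above the floor went the other way. Cbl read 392.9 and 478 on the brighter one, and 303.2 and 372.5 on the next, or 1.22-fold and 1.23-fold lower in GFP-positive cells. A further Cbl probe set was below the floor on both arrays, at 49.7 and 9.7.

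Genes whose proteins are known to bind CBL ligases or to work beside them mostly had a lower signal in GFP-positive cells on their brightest probe set. Of 11 such genes above the floor, out of 12 listed, 9 were lower and 2 higher, with a median of −0.40 log2 and none past 2-fold. Over all genes 50.3% were lower. The adaptor gene Grb2, whose protein links receptors to Ras activation, read 290.6 and 445.7, or −0.62 log2, and its further probe set gave −0.51. Cd2ap, which encodes a scaffold that binds CBL, read 459.5 and 687.4 (−0.58), and its further probe set went the other way (0.36). So did those of Ubash3a (−0.30, further 0.13), Sh3kbp1 (−0.16, further 0.08 and 0.17) and Crk (0.47, further −0.42 and −0.14). Further probe sets of Ubash3b (−0.20 and −0.02) and Sla2 (−0.20) were lower like the brightest, and those of Sla ranged from −0.26 to 0.01. With probe sets averaged the list median was −0.18, and it stayed below 0 under each of the 6 other settings. A pair of genes whose proteins are CBL targets was chosen for mention after their values were seen. Vav1, an exchange factor of the receptor pathway, read 209.7 and 253 (−0.27), with −0.80 on its further probe set. Pik3r1, the regulatory subunit of phosphoinositide 3-kinase, read 563.9 and 396.9 (0.51), with −0.31 on its further probe set. The probe sets of Pik3r1 thus disagreed on which cells had the higher signal.

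Itch and Nedd4 encode HECT ligases with WW domains, and Ndfip1 encodes a membrane adaptor that recruits and activates them. Ndfip1 was higher in GFP-positive cells on 3 of 3 probe sets. The signals were 2562.2 and 2196.7, 1965.1 and 1872.1, and 878.9 and 767.7, or 1.17-fold, 1.05-fold and 1.14-fold higher. Itch, which targets JunB and so limits type 2 cytokines, read 243.4 and 250.9 on its brightest probe set (−0.04 log2) and 210.9 and 230.1 on the next (−0.13). A further probe set of Itch was above the floor on the GFP-positive array only (69 and 46.7, at least 1.33-fold higher), and its last was below it on both (22.5 and 10.3). When its probe sets were averaged the Itch difference became 0.06. That average takes in the probe set that passed the floor only on the GFP-positive array, which could count only as higher. The sign of the average therefore says nothing about the direction of the 2 probe sets above the floor on both arrays. Nedd4, which can promote T cell activation by targeting Cbl-b, was dim on both arrays and its 3 probe sets went both ways. They read 100.6 and 103.5, 81.5 and 114.6, and 91.3 and 81.5. The corresponding differences were −0.04, −0.49 and 0.16 log2.

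Relatives of Nedd4 and their adaptors showed no shared direction. Of 8 genes above the floor, out of 10 listed, 4 were higher and 4 lower in GFP-positive cells, with a median of −0.07 log2 that became 0.11 with probe sets averaged. Wwp1, another HECT ligase with WW domains, read 166.9 and 98.4 (0.76), and its further probe set was higher too (0.30). Nedd4l read 51.9 and 84.9 (−0.71), with the GFP-positive signal at the floor. Ndfip2, the paralog of Ndfip1, read 1120.7 and 1099.1 (0.03) and is named after its values were seen.

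The known targets of these HECT ligases given here are all named after their values were seen, so their directions say nothing about such targets as a set. The list of substrates and clients they come from held 13 lower and 6 higher genes of 19. Tgfbr1 was among the higher ones (450.1 and 262.6, 0.78 log2). Klf10, a TGF-beta response factor that Itch ubiquitinates, read 156.6 and 254.7 (−0.70 log2). Bcl10, a signalling adaptor that Itch and Nedd4 can degrade, read 973.6 and 1367.8 (−0.49), while its further probe sets lay between −0.05 and 0.03. Junb read 266.3 and 274.1 (−0.04), and Jun 142.1 and 133.6 (0.09), with 0.66 on its further probe set. Plcg1 and Prkcq, whose proteins are lost in anergic T cells, differed by −0.33 (803.2 and 1012.1) and −0.39 (4723.3 and 6178.8).

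Rnf128 encodes GRAIL, a RING ligase of internal membranes that is best known from anergic T cells and has also been described in regulatory T cells. It had the largest difference of the 8 tolerance genes, and it was lower in GFP-positive cells on both probe sets. They read 74.2 and 106.1, and 53.7 and 70.6, or 1.43-fold and 1.31-fold lower. Rnf128 was dim: on the GFP-positive array 5 of the 64 genes restricted to other tissues had at least its signal. Both arrays had a signal above the floor for 8773 genes, of which 20.5% differed by more. With the floor doubled the GFP-positive signal lay below it, and the difference was only bounded, at −0.03 or beyond. Of genes with the same domain plan, named after their values were seen, Rnf13 (201.1 and 151.5, 0.41 log2) and Rnf130 (161.9 and 118.1, 0.46) were higher in GFP-positive cells and Rnf167 (520.8 and 648.5, −0.32) lower.

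Genes listed under the anergy programme were mostly lower in GFP-positive cells. They are tied to anergy, the state T cells enter when the antigen receptor signals without co-stimulation. The list was not limited to genes switched on in that state. It holds genes with strong signals on both arrays, such as Dgka (4538.3 and 4585.3) and Dgkz (3933.1 and 4945.5). Of 11 above the floor, out of 12 with a probe set, 9 were lower and 2 higher. The median was −0.33 log2, or −0.17 with probe sets averaged. Among the lower genes, Egr3 (41.6 and 65.7) and Lag3 (42.5 and 72.7) had GFP-positive signals under the floor. No count other than lower was open to them, so their direction adds nothing to the split. Pdcd1, the inhibitory receptor PD-1, read 236.8 and 494.2, and was the member past 2-fold (2.09-fold lower). Nfatc1, which encodes a factor that calcineurin activates, read 445.2 and 888.9 (−1.0), and its other probe sets lay between −1.38 and −0.52. Ctla4, an inhibitory receptor that regulatory T cells carry and named after its values were seen, was higher (2419.6 and 1244.3, 0.96), and passed 2-fold after loess. After either rescaling 3 genes of the list were higher and 8 lower. Egr2, named after its values were seen and known to drive Cblb transcription in anergic cells, read 385.6 and 317.2 (0.28), with 0.28 on its further probe set.

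Peli1 encodes a RING ligase of the Pellino family that restrains T cell activation by targeting the NF-kappaB subunit c-Rel. It was higher in GFP-positive cells on 5 of 5 probe sets, by small amounts on the brighter ones. Those read 1157.2 and 1096.2, and 914.9 and 855.1, or 0.08 and 0.10 log2. The dimmer probe sets read 235.2 and 178.1 (0.40), 192.4 and 179 (0.10), and 121.4 and 88.7 (0.45). The gene of its target, Rel, named after its values were seen, read 127.1 and 129.6 (−0.03).

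Stub1 encodes CHIP, a ligase that works with heat shock proteins and can send Foxp3 to degradation. Its 2 probe sets disagreed. The brighter one read 846.9 and 1099, or 1.30-fold lower. The other, of a kind that may match several transcripts, read 696.8 and 584.4, or 1.19-fold higher. The average over both was −0.06 log2. Stub1 partners, named after their values were seen apart from Foxp3, were Hspa8, at 16943.4 and 15480.8 (0.13), and Hsp90aa1, at 2057.4 and 1676 (0.30). The further probe sets of Hspa8 ranged from −1.22 to 0.36, whereas those of Hsp90aa1 were all higher in GFP-positive cells, at 0.12 to 0.67.

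Over the members, 6 of the 8 with more than 1 probe set above the floor on both arrays had all of these probe sets on the same side, Stub1 and Nedd4 being the exceptions. Over all 3522 genes with more than 1 such probe set, 44.2% did. Probe sets of the same gene scattered around their mean difference with a standard deviation of 0.42 log2. That scatter holds no variation between mice, sorts or hybridisations. Each of the 8 tolerance genes apart from Rnf128 differed by less than this on its brightest probe set.

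**Figure D2:**
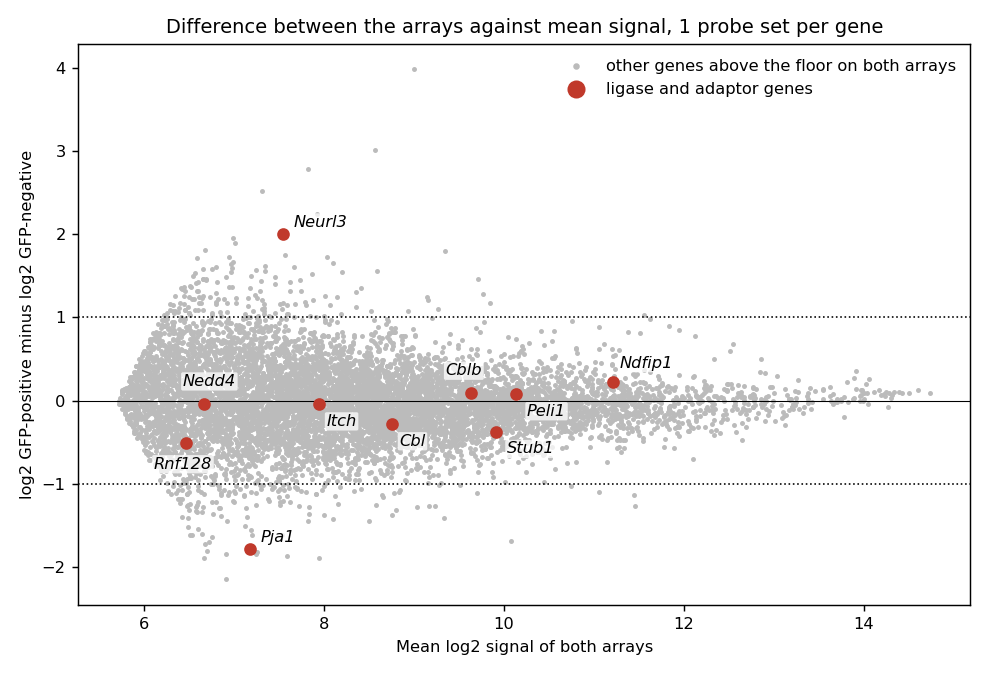
Difference between the arrays (log2, vertical) against the mean log2 signal of both arrays (horizontal), 1 brightest probe set per gene, for 8773 genes. The 8 tolerance genes lie within the grey cloud between the dotted 2-fold lines, and Neurl3 (2.0) and Pja1 (−1.79) lie outside them.

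Neurl3 encodes a RING ligase with the neuralized homology domain, first described in inflamed lung and related to the fly Notch regulator Neuralized. Its only probe set read 374.6 and 93.5. The GFP-positive signal was thus 4.01-fold or 2.0 log2 higher, and 6 of the 8773 genes measured on both arrays differed by more in either direction. This value is what chose the gene, and no second probe set was there to set beside it. The GFP-negative signal was low, and 1 of the 64 genes restricted to other tissues reached it on that array. Among the 2010 genes with a mean signal within 0.5 log2 of Neurl3, 5.37% passed 2-fold in either direction. Under the other settings the difference ran from 1.85, a lower bound with the floor doubled, to 2.0.

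Pja1 encodes Praja1, a RING ligase whose gene lies on the X chromosome, as does Rnf128. All 4 of its probe sets were lower in GFP-positive cells. The brightest read 77.9 and 269.3, or 3.46-fold lower (−1.79 log2), a difference that 19 of the 8773 genes exceeded. The other 3 were below the floor on the GFP-positive array. They read 41.5 and 89.8 (at least 1.73-fold lower), 17.6 and 100.4 (at least 1.94-fold) and 4.6 and 55.9 (at least 1.08-fold). These 3 passed the floor only through the array on which they were high, so their direction adds no support to that of the brightest. With probe sets averaged the value was −0.91, itself a bound because 3 of the 4 values in it are bounds. On the GFP-positive array 5 of the 64 genes restricted to other tissues had at least the signal of its brightest probe set. The Y-linked gene Eif2s3y read 884.9 and 678.1, and Xist, the RNA of the inactive X chromosome, at most 69.9 and 43.3 on its probe sets, both named after their values were seen. Among the 1963 genes with a mean signal within 0.5 log2 of Pja1, 7.03% passed 2-fold.

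Genes related to Neurl3, Pja1, Rnf128 and Peli1 by family or by a role in Notch signalling went both ways. Of 15 above the floor, out of 18 with a probe set, 8 were higher and 7 lower in GFP-positive cells, with a median of 0.07 log2, or 0.26 without probe sets that may match several transcripts. Neurl1a (60.9 and 41.9) passed the floor only on the GFP-positive array and could count only as higher. Mib1, which like Neuralized proteins acts on Notch ligands, read 116.4 and 56.3, or 2.07-fold higher, but its further probe set was lower by 0.51 log2. After quantile normalization or loess Mib1 no longer passed 2-fold. Dtx4, of the Deltex family, read 140.9 and 73.6 (0.94), and its further probe set was higher too (0.43). Pja2, the paralog of Pja1, named after its values were seen, read 483.5 and 460 (0.07), with its further probe sets between −0.51 and −0.33. Neurl1a, Neurl1b, Neurl2 and Neurl4, named likewise, had signals from 30.2 to 146.7, and their differences where a signal was above the floor ran from −0.23 to at least 0.23.

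Promoter sequence was set beside these values for the members that RefSeq tables (GRCm38.p6) hold, 7 of 10 genes with 8 starts. Itch, Ndfip1 and Pja1 were not among them. The 250 bases before the start are printed for Neurl3, the member with the largest difference, and for Cblb, whose signals were alike on both arrays. The Neurl3 stretch is chr1:36273426-36273675 on the minus strand, and capitals mark a match to the kappaB consensus and then a TATA box. The Cblb stretch is chr16:52031299-52031548 on the plus strand, and capitals mark GC boxes (CCGCCC) and CCAAT boxes (here ATTGG), the first pair of which adjoin.
Neurl3: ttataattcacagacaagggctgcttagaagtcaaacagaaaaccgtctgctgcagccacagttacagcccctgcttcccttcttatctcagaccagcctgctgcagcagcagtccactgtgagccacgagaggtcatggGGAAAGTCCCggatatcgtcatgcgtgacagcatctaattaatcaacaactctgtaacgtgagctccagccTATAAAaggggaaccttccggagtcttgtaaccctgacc
Cblb: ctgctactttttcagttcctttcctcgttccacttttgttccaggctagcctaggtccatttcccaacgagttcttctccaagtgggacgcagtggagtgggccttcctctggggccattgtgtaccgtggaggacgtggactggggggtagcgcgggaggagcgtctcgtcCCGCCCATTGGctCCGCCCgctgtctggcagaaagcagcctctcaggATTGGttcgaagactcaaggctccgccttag

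Matches to 8 motifs were searched on both strands: the kappaB consensus bound by NF-kappaB, the TATA box (TATAAA), the CCAAT box (CCAAT), the Sp1 GC box (GGGCGG), a forkhead site (TGTTTAC), the AP-1 site (TGANTCA), the STAT site GAS (TTCNNNGAA) and the cAMP response element (TGACGTCA). The Neurl3 window was the 1 of 8 with a kappaB match, from 110 to 101 bases before the start, and the 1 of 8 with a TATA box, from 39 to 34 bases before it. Over all 32851 windows of this length 3.90% held a kappaB match and 12.4% a TATA box. A GC box was found in 6 of the 8 windows, against 32.7% of all, and was absent from Neurl3 and from the second Nedd4 start. Cblb had 2 CCAAT boxes, which 33.8% of all windows held at least once. The second Nedd4 start held the AP-1 match (6.75% of all windows) and the GAS match (7.02%). The forkhead site (3.17%) and the cAMP response element (1.55%) had no match in the 8 windows. Neurl3 had 50.4% G and C bases and 7 CpG pairs, below the 58.8% to 74% and 12 to 33 pairs of the other windows except the second Nedd4 start (46% and 9). All windows had medians of 52.4% and 6. These matches describe letters and show no binding.

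**Figure D3:**
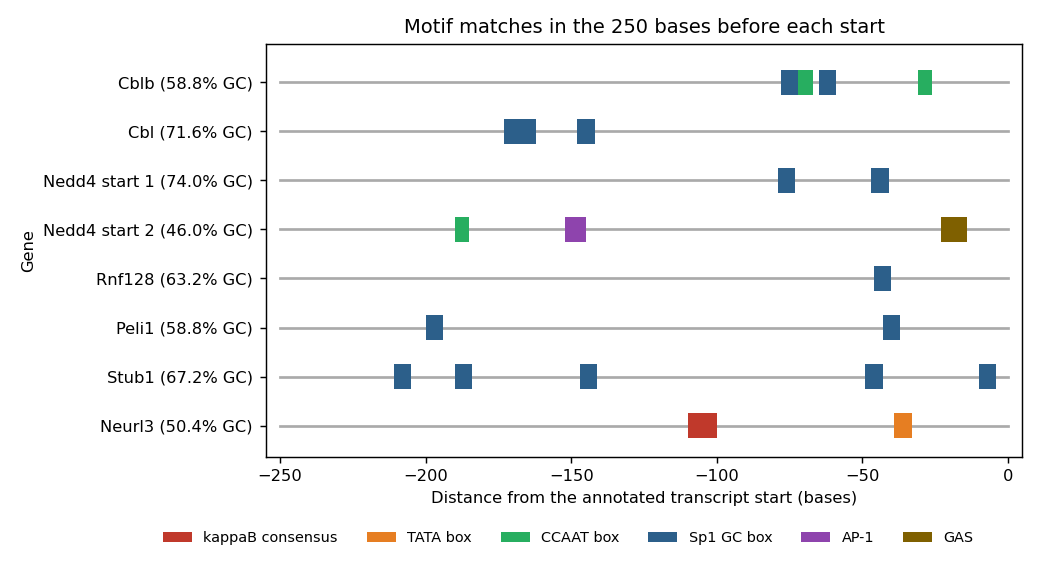
Motif matches (coloured boxes) by distance in bases from the annotated start, in the 250 bases before each of 8 starts, with the share of G and C bases beside each gene. GC boxes recur in 6 of the windows, while Neurl3 carries the kappaB and TATA matches.

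Lists of the remaining ubiquitin machinery are given by their counts, to be read beside the 4.48% of all genes past 2-fold, at which a count of 0 is near the background. Other ubiquitin ligases of T cells split into 11 higher and 10 lower genes of 21 measured, none past 2-fold. Their median was 0.05 log2, and −0.01 without probe sets that may match several transcripts, so its sign depends on the setting. Vhl, the substrate receptor for hypoxia-inducible factors, read 240.7 and 129 (0.90), and Siah2, a RING ligase, 138.9 and 78.9 (0.82). Ubiquitin E1 and E2 enzymes, which activate and carry ubiquitin, split into 9 higher and 15 lower genes of 24, none past 2-fold, and their median was −0.06. Ube2w read 186.8 and 114.5 (0.71), and Ube2g2, an E2 of degradation at the endoplasmic reticulum, 268.6 and 385 (−0.52). After quantile normalization or loess 11 of the 24 were higher. Ube2d1 (51.8 and 70.1) fell just under the floor in GFP-positive cells, so it could be counted on the lower side alone.

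Deubiquitinases, which remove ubiquitin, were lower in GFP-positive cells for 15 genes of 20 and higher for 5, none past 2-fold. Their median was −0.13 log2 and stayed below 0 under each of the 6 other settings. Otub2 (3.3 and 55.1) had a GFP-positive signal under the floor, so no count other than lower was open to it. Usp38 differed by only −0.007 and did not keep its direction over the scalings. After loess 6 genes of the list were higher and 14 lower. Usp21, which can stabilise Foxp3, read 130 and 74.7 and was the highest of the list at 0.80. Usp9x read 146.9 and 235.8 (−0.68), but its further probe sets ranged from −0.44 to 0.24. Tnfaip3 and Cyld, which restrain NF-kappaB signalling and are named after their values were seen, read 1865.3 and 2215.5 (−0.25) and 1503.9 and 1699.6 (−0.18). Substrates and clients of the ligases taken as a whole split into 6 higher and 13 lower genes of 19, and their median was −0.10. Foxp3, whose promoter drives the GFP of these mice, was the 1 member past 2-fold (1.54 log2). Cd247, the CD3 zeta chain, read 735 and 1444.7 (−0.97), and its further probe set went the other way (1.09).

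**Figure D4:**
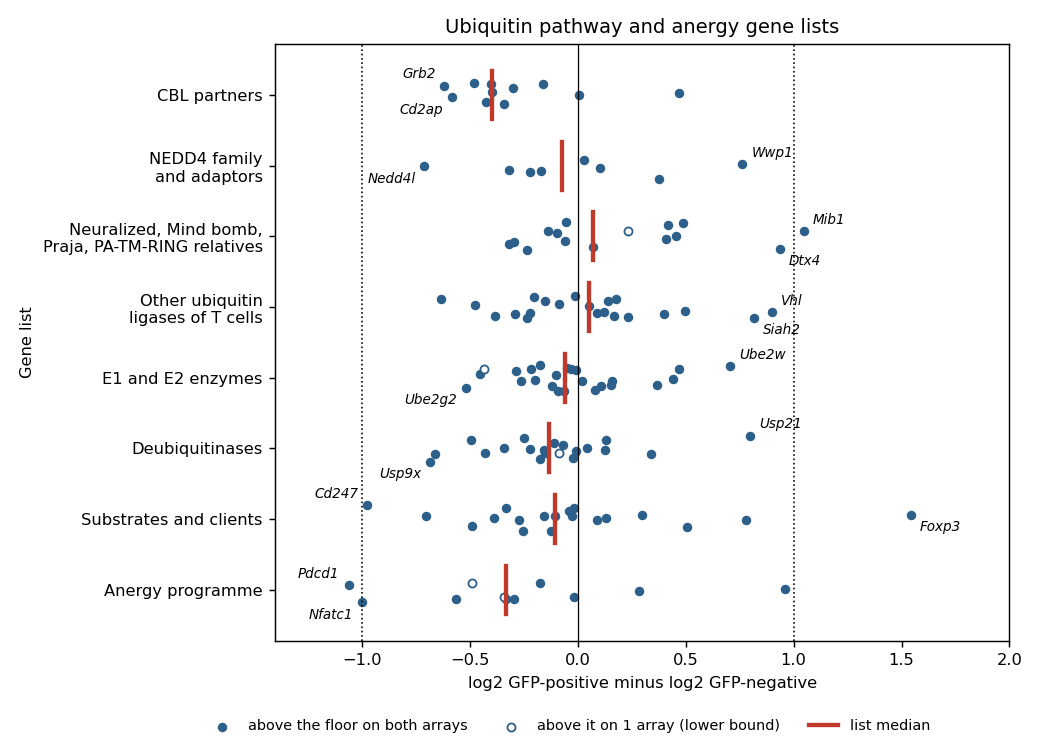
Difference between the arrays (log2, horizontal) for each gene above the floor in 8 lists of the ubiquitin pathway and the anergy programme, with list medians as bars, 2-fold lines dotted and the 2 genes farthest from 0 labelled. List medians lie between −0.40 (CBL partners) and 0.07 (relatives of Neurl3, Pja1, Rnf128 and Peli1), and Foxp3, Mib1 and Pdcd1 lie beyond the 2-fold lines.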

How the data were processed

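Total RNA (6 µg per array, extracted with Trizol per the labels' protocols) of 2 sorted populations, stated to be more than 99% pure, was measured on 1 array each. The deposited values are 1 linear intensity per probe set, which the authors computed with MAS5, as named in the submitters' processing notes and per the labels. The sources used here give no software version, genome build or detection calls. The 2% trimmed mean was 150.001 on both arrays, so no further scaling was applied. Of 45101 probe sets, 34945 had 1 symbol in the platform annotation, 932 several and 9211 none. The brightest probe set (by mean log2 signal over the arrays) stood for its gene. The floor rests on 104 probe sets of 64 tissue-restricted genes, of which 16 passed it. Signals below it were raised to it before log2. A gene counted as called past 2-fold. Pathway genes were named by a rule: up to 4 members past 2-fold per list, otherwise the 2 with the largest difference. The members and lists were chosen with earlier results of these data known, and the promoter motifs after the values were seen. No test was possible with 1 array per group, and the number of arrays limits the precision. Counting was tested on simulated data with large changes in genes well above the floor and with less noise than the scatter of probe sets. That test does not cover signals near the floor. Alternatives were another floor, threshold, scaling (quantile, or cyclic loess in limma 3.58.1), probe set averaging and removal of probe sets that may match several transcripts. Python 3.11.15 was used.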

Additional observations from a re-analysis of the deposited data

How the results depend on the processing

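Of 59 values of the 10 genes under 6 other settings, 1 had the other sign, that of Itch with probe sets averaged, and 2 lay farther from the reported value than the scatter of probe sets, both as bounds: Rnf128 with the floor doubled to 103.72 (−0.0327 log2 or beyond) and Pja1 with probe sets averaged (−0.9107 or beyond). Neither shows a smaller difference. The Itch average takes in a probe set that passed the floor only on the GFP-positive array, so its sign is not informative. Nedd4 was below the doubled floor on both arrays and gave no value there. Members past 2-fold numbered 2 in each other setting and 1 with probe sets averaged, where the value of Pja1 is that bound. Over all genes 288 were at least 2-fold higher and 222 lower in GFP-positive cells. These counts were 80 and 81 with the floor doubled, 3305 and 2420 with no floor, 152 and 106 with probe sets averaged, and 1201 and 960 at 1.5-fold. After quantile normalization they were 258 and 252 and after cyclic loess 242 and 265, so the excess of higher genes was nearly gone under the first and turned under the second. List medians moved with probe sets averaged for CBL partners (−0.1844), the NEDD4 family (0.1105) and the anergy programme (−0.1726), and without probe sets that may match several transcripts for relatives of Neurl3 and Pja1 (0.2599). The median of other ubiquitin ligases turned to −0.0135 in the latter setting. The cause was not tested. No paired analysis was possible because each group holds 1 array and no comparison comes from a test. Signals near the floor, as for Rnf128, Nedd4 and Pja1, limit what can be said of them.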
